A study of Rattus norvegicus with 13 samples.

Results

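The 10 genes described here, of 13337 named on the array, belong to the matrix that fibroblasts make, and were followed across the ventral midbrain of saline- and METH-treated rats. They are Col1a1, Col1a2 and Col3a1 (fibrillar collagen chains), Dcn, Lum, Fmod and Ogn (small leucine-rich proteoglycans), Mgp (an inhibitor of calcification), Igf2 (a growth factor) and Igfbp2 (a protein that binds it). Each had 1 named probe, and all 10 probes passed the filter on low signals. The genes were chosen by a reading of these same arrays, in which a list of meningeal and choroid plexus markers was lower after the METH challenge. The values of the 10 genes are therefore given as a description, with SDs or SEs and no p-values. All 4 groups of arrays entered that choice.

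RNA came from the ventral midbrain (SN/VTA, which holds the substantia nigra and the ventral tegmental area) of male Sprague-Dawley rats, 8 weeks old, and was hybridized to Illumina RatRef-12 BeadChips. The rats first received saline or METH for 3 weeks (single doses of 0.5 to 2.5 mg/kg), and 72 h later they were challenged with METH (8 injections of 5 mg/kg at intervals of 1 h) or with saline on the same schedule. The groups are SS (saline, then saline, 3 arrays, replicates 2, 3 and 4), SM (saline, then METH, 3 arrays, replicates 1, 3 and 4), MS (METH, then saline, 4 arrays, replicates 1 to 4) and MM (METH, then METH, 3 arrays, replicates 1 to 3), all killed 24 h after the challenge. The labels do not say outright that each array is 1 animal, so SDs measure the spread between arrays.

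As background, fibroblasts of the meninges and of the sheaths around larger vessels lay down the fibrillar collagen of the brain, while neurons and glia make little of it. Type I collagen is built from the Col1a1 and Col1a2 chains, and type III collagen from Col3a1 chains. The small leucine-rich proteoglycans bind collagen fibrils and set their spacing and width. In the rodent brain Igf2 is made chiefly by the meninges and the choroid plexus, and Igfbp2 is secreted from the same tissues and by glia.

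Markers of the labelled tissue were uneven between arrays and in part at the lower limit. A reading at the limit does not show whether the transcript was absent or the probe did not respond. Th, which makes the precursor of dopamine, ranged from 211 on SS replicate 4 to 2675 on MS replicate 2, and Slc6a3, the dopamine transporter, was at the lower limit on MS replicate 3. Slc18a2, which loads monoamines into vesicles, ranged from 122 on SS replicate 4 to 686 on SS replicate 3. Ddc, the next enzyme of dopamine synthesis, was at the limit on all 13 arrays, and Foxa2, a transcription factor of these neurons, on MS replicates 3 and 4. Of the other meningeal genes listed, 20 of 30 had a named probe. Ptgds, Slc6a13, Slc22a6 and Slc22a8 were above the limit on all arrays, whereas Cdh1 was at the limit on all 13 and Tbx18 on 12. Among other fibroblast genes, Fap, Twist1, Twist2 and Dpt were at the limit on all 13 arrays. The name of the gene group therefore rests on its own members and on part of the markers of meninges and fibroblasts. In bulk RNA, fewer cells of a type and less RNA per cell cannot be told apart.

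Of the 10 genes, 6 matched a promoter in RefSeq (build GRCr8): Col1a2, Igf2, Igfbp2, Lum, Ogn and Fmod. Col1a2 and Igf2 are shown because they are the matched genes whose SM arrays all lay below their SS arrays. Each line gives the 250 bases before an annotated start, 5′ to 3′ on the strand of the gene, with capitals marking 4 motifs on either strand: the CCAAT box, the TATA box (searched as TATAAA), the GC box (searched as GGGCGG) and the short Smad-type motif CAGAC. Igf2 has 2 annotated starts in the table.
Col1a2, chr4:33518307-33518556, plus strand: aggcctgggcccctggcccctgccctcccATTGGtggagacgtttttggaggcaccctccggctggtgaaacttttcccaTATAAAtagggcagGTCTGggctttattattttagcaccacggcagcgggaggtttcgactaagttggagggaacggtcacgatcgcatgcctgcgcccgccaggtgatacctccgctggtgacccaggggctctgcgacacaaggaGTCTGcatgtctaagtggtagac
Igf2, chr1:207253981-207254230, minus strand: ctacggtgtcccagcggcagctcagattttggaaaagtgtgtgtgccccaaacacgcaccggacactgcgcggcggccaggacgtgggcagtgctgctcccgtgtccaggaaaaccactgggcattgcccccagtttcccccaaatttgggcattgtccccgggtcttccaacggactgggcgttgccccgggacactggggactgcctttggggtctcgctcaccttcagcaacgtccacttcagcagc
Igf2, chr1:207250476-207250725, minus strand: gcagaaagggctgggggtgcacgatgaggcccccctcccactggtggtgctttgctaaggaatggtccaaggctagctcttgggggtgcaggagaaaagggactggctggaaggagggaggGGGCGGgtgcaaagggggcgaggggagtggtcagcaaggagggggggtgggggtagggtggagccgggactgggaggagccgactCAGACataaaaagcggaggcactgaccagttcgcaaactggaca
The Col1a2 window held a CCAAT box on the other strand 221 bases before the start, a TATA box 170 bases before it, and the Smad-type motif on the other strand 156 and 23 bases before it. The first Igf2 window held none of the 4 motifs, and the second held a GC box 129 bases and the Smad-type motif 44 bases before its start. None of these matches overlapped another. Of the 33469 promoters in the table, 34.0% held a CCAAT box in the same window, 12.9% a TATA box, 30.5% a GC box and 42.9% the Smad-type motif. Of the 6 matched genes, 3 held a CCAAT box, 2 a TATA box, 3 a GC box and 5 the Smad-type motif. These counts are of genes, with Igf2 counted if either of its 2 windows held the motif, whereas the percentages are of single promoters. A match is a run of letters and says nothing of binding.

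Signals below are in units on the scale of the authors' normalization after each array was set to a common median, and they compare arrays for 1 probe, not probes with each other. Log2 changes come from a limma fit to all 17140 probes tested. The criterion of the study was applied to each probe: a fold of 1.7 or more together with a limma p, before adjustment, of less than 0.05.

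The chains of type I collagen were lower after the challenge in saline-pretreated rats. Col1a1 read 46.8, 38.9 and 24.8 on the SS arrays (replicates 2, 3 and 4), 19.9, 19.1 and 12.9 on the SM arrays (1, 3 and 4), 23.4, 33.6, 29.4 and 19.8 on the MS arrays (1 to 4), and 16.6, 27.1 and 8.19 on the MM arrays (1 to 3). Every SM array lay below every SS array, while the MS and MM arrays overlapped. The log2 change was -1.07 (SE 0.39) for SM against SS and -0.75 (SE 0.36) for MM against MS. Col1a1 was the only one of the 10 genes to meet the criterion in SM against SS, a comparison that entered the choice of genes. It did not do so when SS replicate 2 or SM replicate 4 was left out (log2 changes from -1.33 to -0.87 as each array was left out). Col1a1 is also dim, and adding 16 units to every signal before taking the logarithm brought it under the criterion.

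Col1a2, the partner chain, read 797, 993 and 742 on the SS arrays, 580.4, 582 and 630.3 on SM, 732, 851, 997 and 1147 on MS, and 759.96, 869 and 644 on MM. The 3 SM arrays were close together and below all SS arrays, and all MM arrays lay above the SM arrays. Of the 17140 probes tested, 757 lay wholly higher in MM than in SM. The change was -0.49 (SE 0.18) for SM against SS, a fold of 1.4 that is under the criterion, and -0.29 (SE 0.17) for MM against MS. The highest array in this gene was MS replicate 4, and the group means ran from 932 ± 180 in MS (SD, n = 4) through 844 ± 132 in SS (n = 3) and 757 ± 113 in MM (n = 3) to 598 ± 28.3 in SM (n = 3). The neighbours in this order overlapped except for MM and SM.

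Col3a1, the chain of type III collagen, was dim and scattered. It read 13.4, 19.1 and 26.6 on SS, 11.8, 15.1 and 2.22 on SM, 17.7, 31.7, 28.1 and 21.6 on MS, and 33.9, 8.90 and 7.31 on MM. The challenged groups held both the lowest and the highest array, and the groups overlapped in all 4 comparisons. Its changes were the largest of the 10 genes but the least precise, at -1.37 (SE 0.70) for SM against SS and -0.89 (SE 0.65) for MM against MS. Its SD within groups was 0.963 on the log2 scale, against a median of 0.475 for probes of similar signal.

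**Figure D1:**
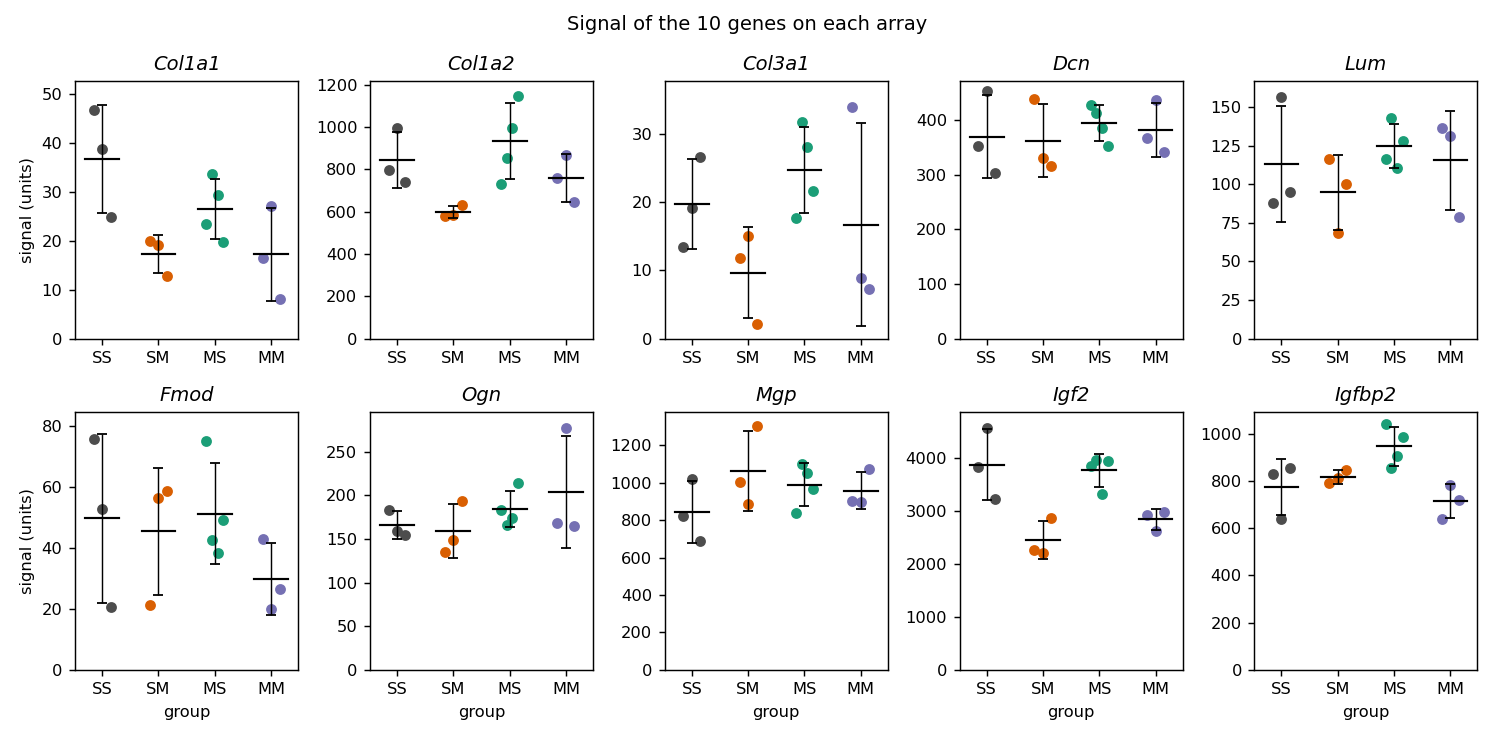
Signal in units (y axis, from 0) of each of the 10 genes on every array, by group (x axis); points are arrays, horizontal lines group means and bars SDs (n = 3, 3, 4 and 3). The SM points lie below all SS points for Col1a1, Col1a2 and Igf2, whereas for Dcn, Lum and Fmod they overlap.

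Igf2 was lower in both challenged groups. It read 3842, 4577 and 3233 on SS, 2272, 2216 and 2874 on SM, 3864, 3968, 3320.1 and 3957 on MS, and 2932, 2618 and 2987 on MM. The SM arrays all lay below the SS arrays, and the MM arrays all lay below the MS arrays. The change was -0.66 (SE 0.14) for SM against SS and -0.41 (SE 0.13) for MM against MS, folds of 1.58 and 1.33 that are under the criterion of 1.7. Leaving out each array in turn kept the first between -0.78 and -0.53 and the second between -0.47 and -0.35. SS and MS, the unchallenged groups, had means of 3884 ± 673 and 3777 ± 308, and SM and MM means of 2454 ± 365 and 2846 ± 199.

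Igfbp2, which carries insulin-like growth factors outside cells, had another pattern. It read 830.5, 637 and 854 on SS, 790.8, 812 and 847 on SM, 1043, 855 and 904 on the first 3 MS arrays and 984 on MS replicate 4, and 641, 783 and 720.2 on MM. Every MS array lay above every SS array, by less than 1 unit at the closest, and every MM array lay below every MS array and every SM array. Of the 17140 probes tested, 274 lay wholly higher in MS than in SS. Likewise, 413 lay wholly lower in MM than in MS and 797 wholly lower in MM than in SM. The changes were 0.30 (SE 0.13) for MS against SS, 0.09 (SE 0.13) for SM against SS, -0.41 (SE 0.13) for MM against MS and -0.20 (SE 0.13) for MM against SM. The challenge effects in METH- and saline-pretreated rats differed by -0.49 (SE 0.18) on the log2 scale.

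Dcn and Lum, proteoglycans that coat collagen fibrils, lay closer to no change than the collagen chains did. Dcn (decorin) ranged from 304 to 453 on SS, 317 to 440 on SM, 353 to 429 on MS and 342 to 438 on MM, and its change was -0.03 (SE 0.17) for SM against SS and -0.05 (SE 0.16) for MM against MS. Lum (lumican), a keratan sulphate proteoglycan, ranged from 87.9 to 156 on SS, 68.2 to 116 on SM, 111 to 143 on MS and 78.5 to 136 on MM, with changes of -0.24 (SE 0.27) and -0.15 (SE 0.25). In both genes the groups overlapped in all comparisons, and the highest SS array was replicate 3.

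Ogn (osteoglycin) ranged from 155 to 184 on SS, 135 to 194 on SM and 167 to 214 on MS, and on MM it read 169, 278 and 165. MM replicate 2 was its highest array. Its changes were -0.08 (SE 0.20) for SM against SS and 0.11 (SE 0.19) for MM against MS. Fmod (fibromodulin) read 75.9, 52.7 and 20.6 on SS and 21.4, 56.3 and 58.6 on SM, so that a low array stood in either group. Its changes were -0.07 (SE 0.51) and -0.80 (SE 0.48), with an SD within groups of 0.699 against a median of 0.262 for probes of similar signal.

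Mgp (matrix Gla protein), which keeps soft tissue and vessel walls from calcifying, had the largest value above 0 of the 10 genes in SM against SS. It ranged from 692 to 1021 on SS, 886 to 1303 on SM, 839.8 to 1101 on MS and 896 to 1075 on MM. The groups overlapped, and the change was 0.33 (SE 0.18) for SM against SS and -0.04 (SE 0.17) for MM against MS.

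**Figure D2:**
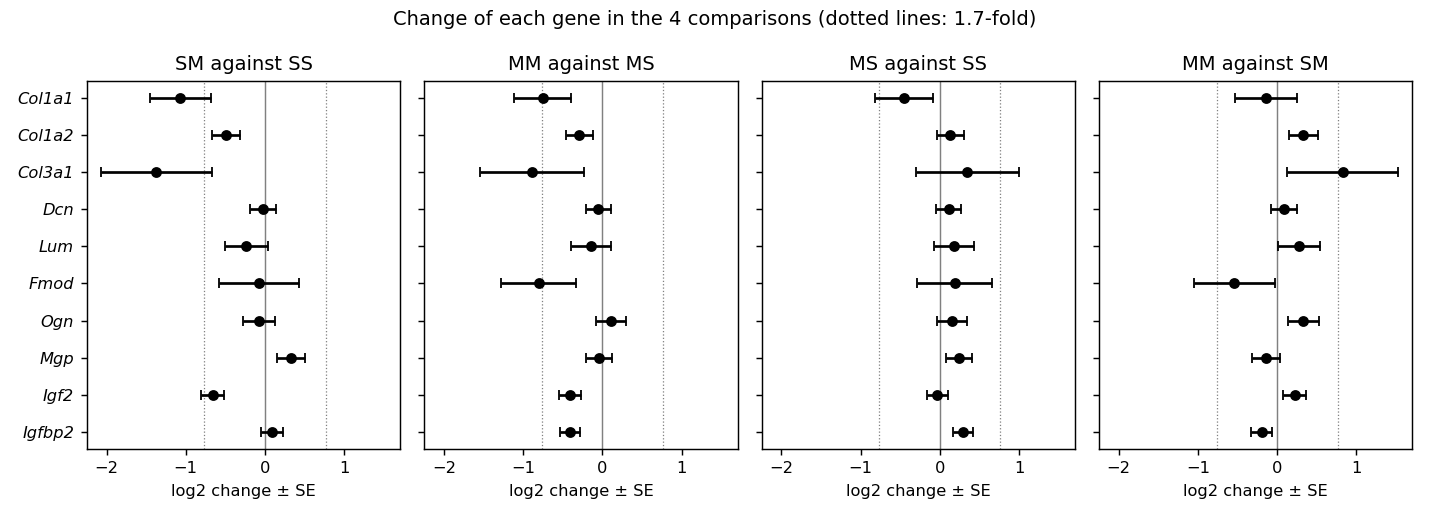
Log2 change (x axis) of each gene (y axis) in 4 comparisons, with bars of 1 SE; dotted lines mark a 1.7-fold change. Col1a1 at -1.07 and Col3a1 at -1.37 lie past the lower dotted line for SM against SS, and Igf2 at -0.66 has the narrower bar.

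Counted over the 10 genes, 8 were lower and 2 higher in SM than in SS, with a median change of -0.16, beside 48.1% of all probes lower and a median of 0.0079. Of the 10, 1 met the criterion in the lower direction, as did 0.939% of all probes tested (0.677% in the higher direction). In 3 of the 10 the SM arrays all lay below the SS arrays, as in 4.6% of all probes. Since this comparison chose the genes, nothing is read from these counts. For MM against MS, 9 were lower and 1 higher, with a median of -0.35, beside 52.5% of all probes lower and a median of -0.0125. None of the 10 met the criterion there, which 0.583% of all probes met in the lower and 0.741% in the higher direction. In 2 of them, Igf2 and Igfbp2, the groups did not overlap, as in 2.41% of all probes. These 2 comparisons share no arrays, but both entered the choice of genes.

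The effect of METH pretreatment in unchallenged rats was compared next. In MS against SS, 8 were higher and 2 lower, with a median of 0.17, whereas 56.2% of all probes were higher. The changes ran from -0.45 (SE 0.36) for Col1a1 to 0.35 (SE 0.65) for Col3a1, and none of the 10 met the criterion, which 0.572% of all probes met in the lower and 0.554% in the higher direction. In MM against SM, 6 were higher and 4 lower with a median of 0.15, and none met the criterion (0.688% of all probes lower, 0.863% higher). The difference between the challenge effects met the criterion in none of the 10 and in 1.66% of all probes.

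**Figure D3:**
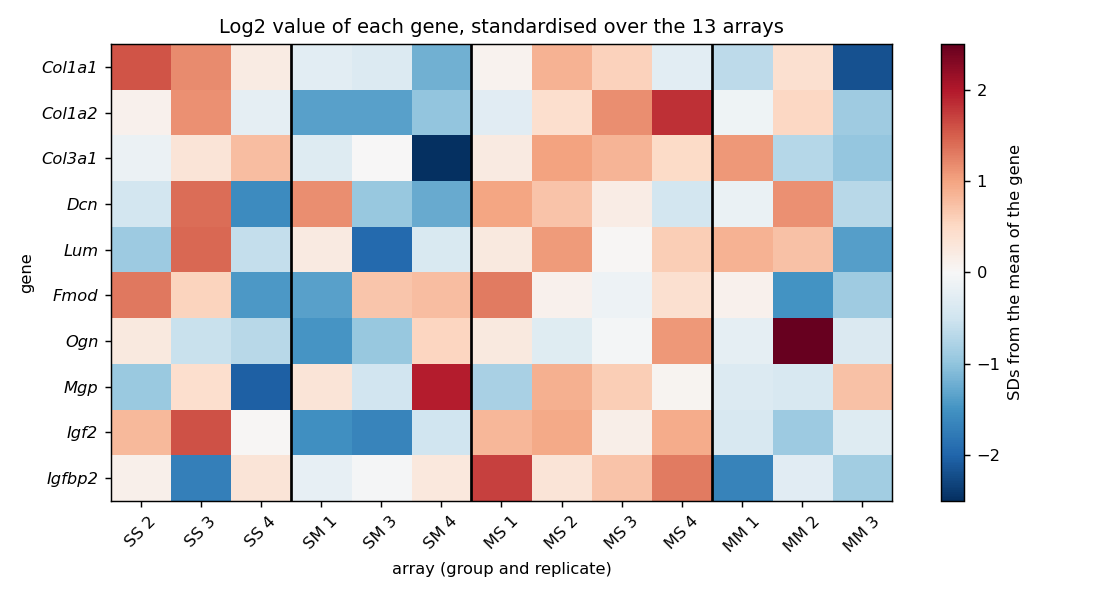
Log2 value of each gene (rows) on each of the 13 arrays (columns, ordered by group and replicate), standardised per gene so that colour gives SDs from its mean over the arrays. The 4 MS columns are the most evenly red, with means over the 10 genes of 0.41 to 0.60, and MM replicate 3 is the bluest at -0.78.

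The 10 genes did not vary as a block from array to array. The mean standardised value over the genes was 0.17, 0.58 and -0.52 on the SS arrays, -0.48, -0.70 and -0.34 on SM, 0.45, 0.60, 0.41 and 0.60 on MS, and -0.15, 0.15 and -0.78 on MM. SS replicate 4 was thus lower than every SM array but SM replicate 3, and MM replicate 3 was the lowest of the 13. With group means removed, 26 of the 45 pairs of genes had a correlation above 0, with a median of 0.12 and a range of -0.597 to 0.73. Pearson correlations within groups passed 0.5 in 7 pairs, among them Igf2 with Mgp (0.73), Dcn with Lum (0.667) and Col1a1 with Dcn (0.625). The 3 collagen genes formed none of these 7 pairs with each other. These values describe 13 arrays that share 1 normalization.

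Most collagens outside the 10 did not meet the criterion. Of 16 tested, 12 were lower and 4 higher in SM than in SS (median -0.13), and 1, Col5a3, fell by the criterion. It is a chain of type V collagen, and read 34.3, 48.2 and 18.2 on SS against 6.18, 21.8 and 15.0 on SM, with a log2 change of -1.30 (SE 0.54, limma adjusted p = 1). It did not meet the criterion without SS replicate 2, SS replicate 3 or SM replicate 1, or with 16 units added to the signals. The challenge effects on Col5a3 differed by 1.69 (SE 0.74), which met the criterion in 14 of 26 settings. In MM against MS, 10 of 16 were lower (median -0.06) and none met the criterion. Col6a2 was at the lower limit on all 13 arrays.

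Enzymes and chaperones that process collagen were spread about 0, with 9 of 22 lower in SM than in SS (median 0.02) and 14 of 22 lower in MM than in MS (median -0.03). P4ha3, a prolyl hydroxylase subunit, was the only one to meet the criterion anywhere. It was at the limit on all SS arrays and read 0, 13.7, 5.50 and 7.03 on MS, a level at which no fold is given. Of 9 basement membrane genes tested, 4 were lower and 4 higher in SM than in SS, with a median of 0. Lamc3, a laminin chain, was at the limit on 9 of 13 arrays and at most 3.13 on the others. Col4a4, a chain of type IV collagen, was 8.90, 10.7 and 1.40 on SM and 12.1, 16.9 and 18.3 on MM (log2 change 1.60, SE 0.66, limma adjusted p = 1). It lost the criterion without SM replicate 4, MM replicate 2 or MM replicate 3, with 16 units added to the signals, and with no filter on low values.

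Other small leucine-rich proteoglycans were 7 of 9 higher in SM than in SS (median 0.35), although none met the criterion in that comparison. Kera (keratocan) was at 0 on all SM arrays and at 2.35, 3.73 and 1.09 on MM, both too dim for a fold. Aspn (asporin) read 14.9, 13.7 and 2.23 on SS, 21.4, 18.7 and 13.8 on SM, 10.7, 18.0, 19.6 and 16.8 on MS and 12.9, 12.6 and 5.57 on MM, so that the challenge effects differed by -1.91 (SE 0.84, limma adjusted p = 1). That difference met the criterion in 16 of 26 settings, and not with 16 units added to the signals. Among other matrix glycoproteins, 11 of 15 were higher in SM than in SS (median 0.05). Efemp1 (fibulin-3) met the criterion in MS against SS at 1.09 (SE 0.33) and in SM against SS at 0.92 (SE 0.35), both at a limma adjusted p of 1. It read 13.0, 32.9 and 13.7 on SS, 24.2, 45.9 and 35.3 on SM, and 34.0, 33.4, 45.5 and 42.5 on MS. The 2 comparisons share the SS arrays, on which replicates 2 and 4 were low. In SM against SS it did not meet the criterion without SS replicate 2, SS replicate 4, SM replicate 3 or SM replicate 4, and in neither comparison with 16 units added to the signals.

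Among other genes of the insulin-like growth factor system, 10 of 14 were lower in SM than in SS (median -0.07). Igfbp5, another binding protein, read 11.1, 16.3 and 2.84 on SS, 3.97, 0 and 2.69 on SM, 12.0, 5.98, 13.6 and 6.94 on MS and 7.04, 14.6 and 16.6 on MM. It met the criterion as lower in SM than in SS and as higher in MM than in SM (limma adjusted p = 1 for both), but with 16 units added to the signals it met it in neither. The first was also lost without SS replicate 2, SS replicate 3 or SM replicate 3. Of 12 genes of the TGF-beta pathway, which drives collagen synthesis in fibroblasts, none met the criterion in any comparison, and 7 were lower in SM than in SS with a median of -0.08. Its brightest probes were Smad4, the shared signal carrier, with 713 to 859 on SM and 756 to 997 on SS, and Ltbp4, a latency protein, with 683 to 868 on SM and 673 to 775 on SS.

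Among other fibroblast genes, 1 met the criterion after the challenge with either pretreatment. Mmp14, a membrane-bound protease that cleaves fibrillar collagen, read 402, 352 and 409 on SS, 182, 71.0 and 121 on SM, 429.6, 476, 452 and 398 on MS, and 158, 186 and 191 on MM. Every challenged array lay below every unchallenged array. It fell by 1.74 on the log2 scale (SE 0.29, limma adjusted p = 0.326) in SM against SS and by 1.30 (SE 0.27, limma adjusted p = 0.609) in MM against MS, which meets the criterion but not an adjusted threshold of 0.05. It met the criterion in all 26 alternative settings in both comparisons. Of the 18 fibroblast genes tested, 14 were lower in SM than in SS (median -0.14), 14 lower in MM than in MS (median -0.13) and 14 higher in MS than in SS (median 0.16), and Mmp14 was the only one to meet the criterion.

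The other meningeal genes were spread to both sides of no change. Of 17 tested, 10 were lower in SM than in SS (median -0.08) and 8 lower in MM than in MS (median 0.02), and none met the criterion in either. Zic1, a transcription factor of the developing meninges, read 3.82, 10.4 and 12.5 on SM and 21.3, 22.8 and 46.5 on MM, a rise of 1.84 (SE 0.56, limma adjusted p = 1) in MM against SM. It read 17.2, 21.3 and 14.7 on SS and 6.09, 23.0, 26.7 and 13.5 on MS. The challenge effects on Zic1 differed by 2.06 (SE 0.77), which met the criterion in 24 of 26 settings.

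**Figure D4:**
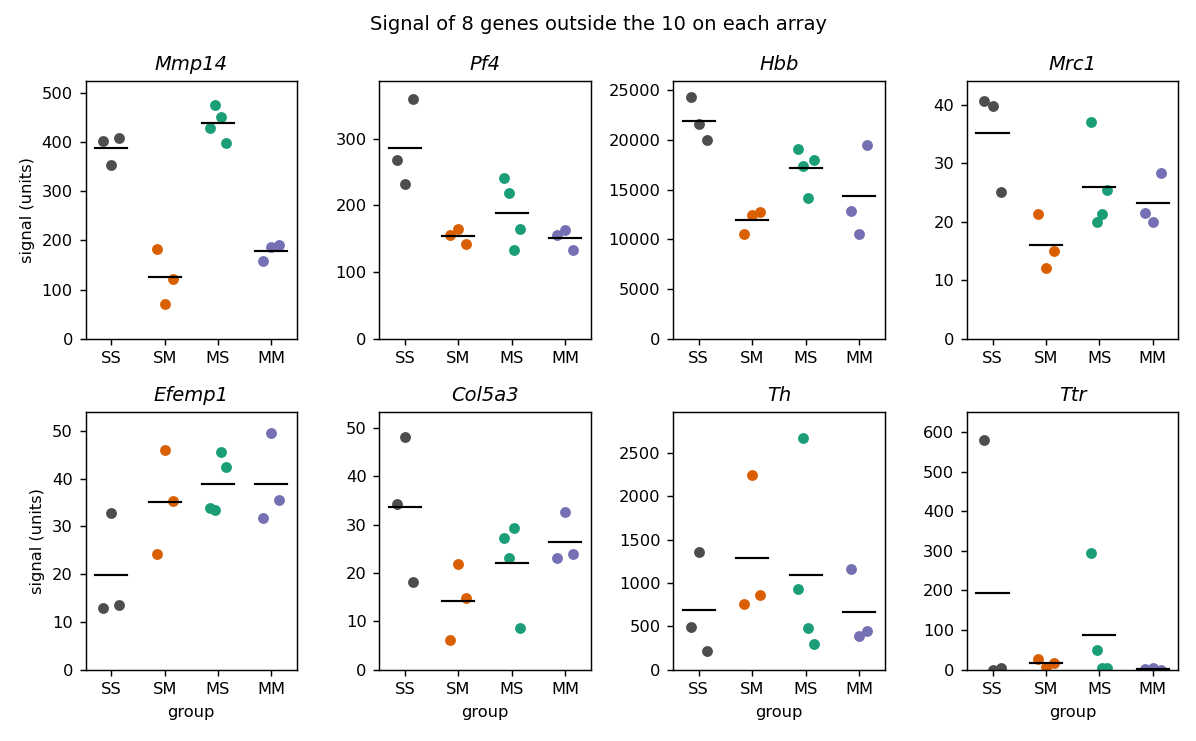
Signal in units (y axis, from 0) of 8 genes outside the 10 on every array, by group (x axis); points are arrays and horizontal lines group means (n = 3, 3, 4 and 3). Mmp14 on all challenged arrays lies at or below 191 and on all unchallenged arrays at or above 352, and Ttr is highest on SS replicate 2 (580.1) and next on MS replicate 1 (294).

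Markers of blood and of macrophages at the brain's borders were mostly lower in SM than in SS, as Col1a1, Col1a2 and Igf2 were. Of 7 blood genes tested, 5 were lower and 3 met the criterion: Hbb, a haemoglobin chain, fell by 0.88 (SE 0.20, limma adjusted p = 0.498), Pf4, a platelet chemokine, by 0.87 (SE 0.21, limma adjusted p = 0.562), and Alas2, of haem synthesis in red cells, by 1.00 (SE 0.34, limma adjusted p = 0.966). Alas2 also fell by 1.00 in MS against SS, with no challenge (SE 0.32, limma adjusted p = 1), and met the criterion in neither comparison without SS replicate 2 or with 16 units added to the signals. Pf4 did not meet it without SS replicate 4. In MS against SS the list medians were -0.36 for blood and -0.23 for border macrophages, while 8 of the 10 genes were higher. Hbb read 24266, 21546 and 19962 on SS and 10565, 12421 and 12767 on SM. The summed blood signal ranged from 20390 to 24660 on SS, 10810 to 12980 on SM, 14400 to 19440 on MS and 10750 to 19750 on MM, nearly all of it from the Hbb probe. Without Hbb, the other 7 named blood genes summed to 324 to 432 on SS, 218 to 251 on SM, 209 to 337 on MS and 214.5 to 239.6 on MM. Most of this sum came from Pf4, which read 268, 233 and 359 on SS and 156, 165 and 142 on SM. The sum without Hbb thus largely follows 1 probe and is not a separate sign of less blood. Slc4a1 and Epb42, also on the list, changed by -0.06 (SE 0.16) and 0.15 (SE 0.24) in SM against SS. Hba-a2, a haemoglobin chain, read 13.6, 13.9 and 15.0 on SS and 23.7, 22.8 and 8.99 on SM. At so dim a level it does not show whether this chain followed Hbb. It met the criterion as lower in MM than in SM (-1.08, SE 0.44), but not with 16 units added to the signals. That result was also lost without SM replicate 1, SM replicate 3 or MM replicate 1. Gp9 was at the limit on all 13 arrays, and Ppbp, also on the list, had dim mean signals of 2.59 on SS and 2.24 on SM.

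The fitted log2 change in SM against SS was below 0 for each of the 7 border macrophage genes tested, with a median of -0.42, and Mrc1, the mannose receptor, met the criterion. It read 40.6, 39.8 and 25.1 on SS and 21.2, 12.1 and 15.0 on SM (-1.13, SE 0.28, limma adjusted p = 0.557). The summed signal of the list was 293 to 314 on SS, 209 to 261 on SM, 257 to 277 on MS and 235 to 264 on MM. Cd163 had nearly equal mean signals, 5.96 on SS and 6.03 on SM, and was at the limit on SM replicate 4. No marker of this list was at the limit on all arrays. In SM against SS, Mrc1 did not meet the criterion with 16 units added to the signals. The challenge effects on Mrc1 differed by 1.01 (SE 0.38), which met the criterion in 20 of 26 settings. The part of blood and of border macrophages in the lower signals of Col1a1, Col1a2 and Igf2 was not tested.

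Ttr, the carrier of thyroid hormone that the choroid plexus makes in bulk, was 580.1 on SS replicate 2, 294 on MS replicate 1 and 51.1 on MS replicate 2, and at most 28.3 on the other 10 arrays, 2 of them at the limit. Igf2 read 3842 on SS replicate 2 and 3864 on MS replicate 1. Its highest array, at 4577, was SS replicate 3, where Ttr was at the limit. The part of the choroid plexus in the Igf2 signal was not tested. Of 15 choroid plexus genes tested, 8 were lower in SM than in SS (median -0.04) and 12 lower in MM than in MS (median -0.31), and none met the criterion. Clic6, Cldn2 and Tmem72 were at the limit on all 13 arrays. The summed signal ranged from 9232 to 10420 on SS, 8175 to 9559 on SM, 9335 to 10720 on MS and 8624 to 8970 on MM, most of it from Enpp2, which oligodendrocytes also make.

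Among 12 genes of mural cells, 6 were on the lower side in SM against SS (median -0.03), and Lmod1, of smooth muscle, met the criterion as lower there (-1.48, SE 0.31, limma adjusted p = 0.43) and as higher in MM than in SM (1.06, SE 0.31, limma adjusted p = 1), in neither case with 16 units added to the signals. Of 12 endothelial genes 6 were lower, with a median of -0.0038, and none met the criterion. Dopamine neuron genes were 6 of 8 higher in SM than in SS (median 0.45), astrocyte genes 4 of 7 higher (median 0.07), oligodendrocyte genes 6 of 8 lower (median -0.18) and microglial genes 5 of 9 higher (median 0.02), and none of these met the criterion in any comparison.

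The genes most like the mean pattern of the 10 were ranked by Pearson correlation over the 13 arrays among 9604 genes above the limit on all of them. The first were Ptn, a heparin-binding growth factor (0.892), Cldn17, a claudin (0.861), Rbm3, a cold-inducible RNA-binding protein (0.812), Lgals7, a galectin (0.809), and Ifi35, an interferon-induced gene (0.807). Tex21 (0.799), Aldh1b1 (0.796), Plat, the tissue plasminogen activator (0.796), Egfl7, secreted by endothelium (0.794), and Akr1c19 (0.79) followed. Ptn read 84.5, 85.0 and 70.6 on SS, 62.9, 43.1 and 61.7 on SM, 85.5, 99.4, 81.0 and 99.3 on MS, and 74.9, 97.1 and 46.0 on MM. Its lowest arrays, SM replicate 3 and MM replicate 3, were also among the lowest for the 10 genes, which follows from ranking on these same arrays. Mmp14 ranked 39 with a correlation of 0.71. The groups contribute to these values, since the arrays were not centred by group.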

How the data were processed

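Expression in the SN/VTA was measured on 13 arrays in 4 groups. The authors extracted signals in BeadStudio and normalized them globally, and the deposited value is a ratio of each probe's signal to its median over the arrays (or to 10 units where that was lower), with a lower limit of 0.01. Signals in units were recovered by finding, for each array, the smallest step that divides its dim values (29831 of 29831 came out whole to within 0.02). Between 26.63 and 30.48% of values per array were at the limit, and the number of arrays limits the precision. Beads per probe are not given in the sources used here.

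Ratios were divided by their array median (0.770 to 0.952), floored at their 25th percentile (0.012) and put on the log2 scale. A probe entered the fit if 3 or more arrays exceeded the floor (17140 of 22523 probes). Group means were estimated by limma 3.58.1 under R 4.3.3 with a trended prior, and p-values were adjusted by Benjamini-Hochberg over all of them. Signals printed were put on the same median scale. The fit was tested on simulated data.

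Probes were named by the platform annotation, and 13752 of 13793 named probes matched the current rat annotation. The 10 genes and the 18 other lists were chosen with earlier results of these data known. From each list the text names up to 4 genes meeting the criterion by smallest p, or else its 2 brightest where values are given, with Th and Slc6a3 for the tissue and the 10 genes of most similar pattern. Alternatives covered scaling, floor, offset, filter, prior, replicate block and leaving out each array. The methods mention striatal samples at amplification, and the labels' SN/VTA was followed.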

Additional observations from a re-analysis of the deposited data

Results flagged for a closer look

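In 51 genes the 4 MS arrays were examined for an array far from the others, and 3 passed the critical value of Dixon's test. The Igf2 signal of MS replicate 3 was 3320, below the 3864 to 3968 of the rest of the group. Kera was 6.84 on MS replicate 4 and at the limit on the other MS arrays. With those tied at the limit any reading above it would pass, so nothing is read from the Kera flag. Otx2, a transcription factor of the choroid plexus and midbrain, had a signal of 17.4 for MS replicate 3, where the rest of the group had 200.4 to 224. Chance alone flags about 5% of such groups where values are not tied at the limit.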

How the results depend on the processing

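The count of the 10 genes meeting the criterion in SM against SS was 1 (Col1a1) and became 0 with 16 units added to the signals and, in an alternative chosen after seeing the data, 0 without SS replicate 2 and MS replicate 3 together. Leaving out each array in turn gave 0 to 2: 0 without SS replicate 2, and 2 without SS replicate 4 (Col1a1, Igf2), SM replicate 3 or MM replicate 1 (Col1a1, Col3a1), while Igf2 took the place of Col1a1 without SM replicate 4. In MM against MS the count was 0 and ranged from 0 to 1 as arrays were left out (1 without MS replicate 4 or MM replicate 2, both Col1a1, and without MM replicate 1, Col3a1). It was 1 (Col1a1) with the replicate block, and 1 with replicates 1 and 2 against 3 and 4 as a block. With the replicate block Igfbp5 no longer met the criterion in SM against SS, and Col4a4 did not in MM against SM with either block. The cause was not tested.

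The median over the 10 genes in SM against SS ranged from -0.458 (without SS replicate 4) to -0.074, and the median difference between challenge effects from -0.078 to 0.262, below 0 without SS replicate 3 (-0.045), MM replicate 1 (-0.025) or MM replicate 2 (-0.078). The same numbers in different groups were not shown to pair the arrays: 6 of 15 such pairs had a correlation of residuals over 0.1, and 7 of 13 arrays had their best partner under their own number. Igf2 and Col1a2 kept their sign in both challenge comparisons in all 26 settings, as did Col1a1 and Col3a1. Within replicates 3 and 4 the change of Col1a2 in MM against MS was -0.733, from 1 MM array (replicate 3) against 2 MS arrays. Within replicates 1 and 2 it was 0.042, from 2 arrays of each group. The dimness of probes such as Col1a1 and Col3a1 limits the precision of their ratios.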
